A study of Mus musculus with 3 samples.

Results

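Potassium channel genes were taken as every protein-coding gene whose symbol starts with Kcn, followed by a subfamily letter code and a number, and they were compared in 3 populations sorted from differentiated mouse embryonic stem cells. The rule found 94 genes with 93 symbols among 39179 genes, of which 66 averaged 10 or more across libraries and are called measured below. Kcnj2 and Kcnj12, genes of the inward rectifier current of working heart muscle, were highest in the mCherry-positive cells, and Kcnh3, Kcnh1 and Kcnc4, genes of voltage-gated channels, were highest in the Cntn2:eGFP-positive cells. By a rule of size (at least 2-fold, with 1 added to each value, and 20 or more in the higher library), 28 of the 66 genes were lower in the Cntn2:eGFP-positive cells than in the mCherry-positive ones and 13 higher, beside 15.6% lower and 15.6% higher of 16036 measured protein-coding genes.

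All cells came from 1 embryonic stem cell line that reports Cntn2, a gene of Purkinje cells that encodes the adhesion protein contactin 2, by eGFP, transduced with a lentiviral mCherry reporter driven by aMHC, the promoter of the heart muscle myosin gene Myh6. Every population had received sodium nitroprusside, which releases nitric oxide, at day 4 of differentiation, and sorting took place after 25 days. The sort gave a fraction with neither reporter (NEG), a fraction with mCherry (MHC) and a fraction in which eGFP was present and mCherry dim (GFP). Each had 1 library, so there is no replicate check, no test of a difference between populations was possible and no p-value is given.

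Potassium channels let potassium leave the cell and so bring the membrane back to its resting voltage after each action potential. They are assembled from several pore-forming subunits, and auxiliary subunits change their gating and their transport to the membrane. In the heart, different channels carry the transient outward current of early repolarisation, the delayed rectifier currents that end the action potential, the inward rectifier that holds the resting potential of working muscle, and the acetylcholine-activated current of atrial and nodal cells. Purkinje fibres, which spread the impulse through the ventricles, have less inward rectifier current than ventricular muscle.

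Library totals were 52109065 recovered reads for GFP, 52826956 for MHC and 47289405 for NEG, of which 21557, 35157 and 28549 lay in potassium channel genes. Values are read counts per gene divided by the size factor of the library, and 1 read is worth 0.914 (GFP), 1.01 (MHC) or 1.13 (NEG). They are not divided by gene length, so levels are compared between libraries and not between genes. The reporter genes followed the sort, with Cntn2 at 10045 (GFP), 228 (MHC) and 204 (NEG) and Myh6 at 4694 (GFP), 186924 (MHC) and 3843 (NEG). All 8 cardiomyocyte markers checked were at least 2-fold lower in GFP than in MHC, with summed values of 15856 (GFP), 312976 (MHC) and 9967 (NEG). The list includes Myh6, which makes up 186924 of the MHC sum, and the conduction markers include Cntn2. The differences of these reporter genes follow from the sort. Among conduction markers, Cntn2, Gja5 and Hcn4 were higher in GFP than in MHC and Irx3, Etv1 and Nkx2-5 lower, with Gja5 at 0 in NEG, where the limit taken for a count of 0, 3 reads, is a value of 3.39.

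**Figure D1:**
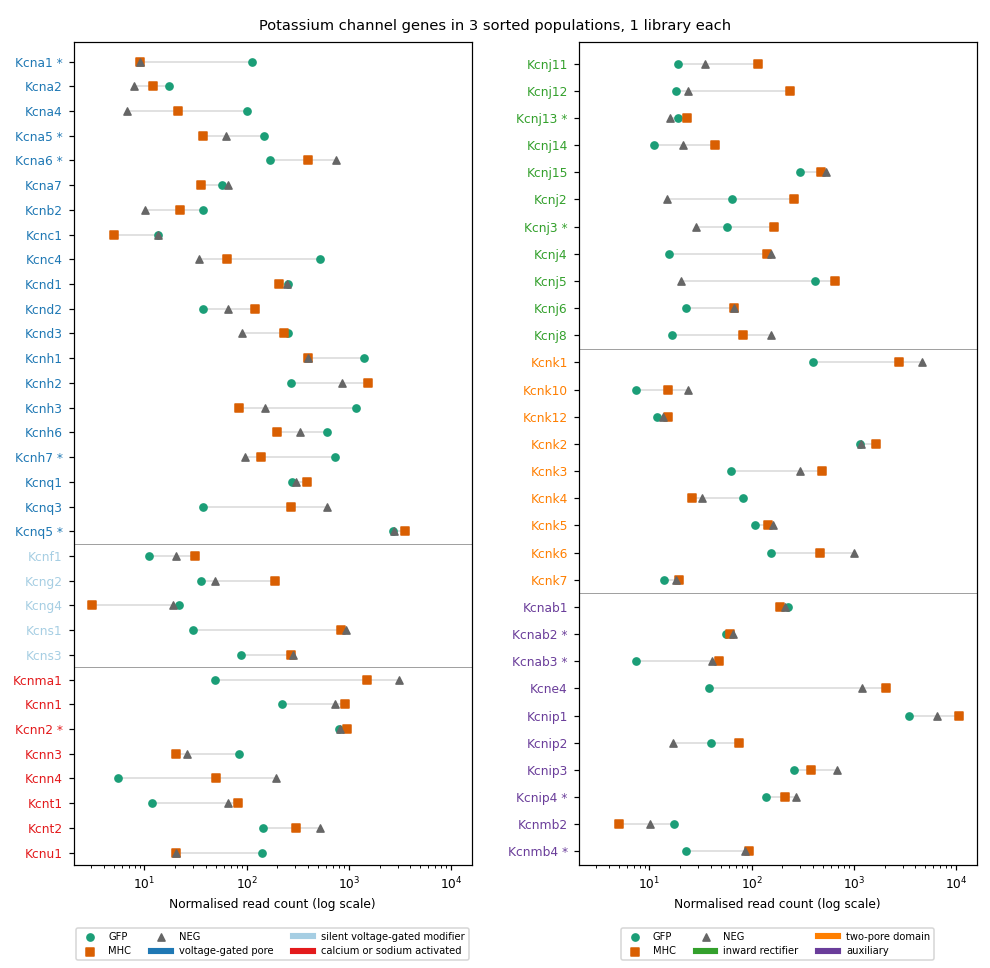
Normalised read count of 63 of the 66 measured potassium channel genes on a log scale, in GFP (circles), MHC (squares) and NEG (triangles), 1 library each, with gene names coloured by role and an asterisk where an overlapping gene has at least 25% of the gene's value. Inward rectifier genes lie mostly with GFP left of MHC, and Kcne4, Kcnma1 and Kcns1 have GFP far to the left of both other libraries.

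A gene was called higher or lower where the log2 ratio of values, each with 1 added, was at least 2-fold and the higher value was 20 or more. No test stands behind it. Of the 66 measured genes, 13 were called higher in GFP than in MHC and 28 lower, against 15.6% and 15.6% of 16036 measured protein-coding genes (31.2% in either direction). Their median log2 ratio was −0.58, beside 0.05 for the protein-coding genes. Between GFP and NEG, 17 were higher in GFP and 21 lower, with 14.4% and 13.6% of protein-coding genes (27.9% in either direction), and medians of −0.29 and 0.04. Between MHC and NEG, 10 were higher in MHC and 4 lower, with 5.1% and 4.61% of protein-coding genes (9.71% in either direction), and medians of 0.04 and −0.01. The comparisons share libraries and are not independent of each other. In such pools of sorted cells, fewer cells of a type and less RNA per cell cannot be told apart.

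**Figure D2:**
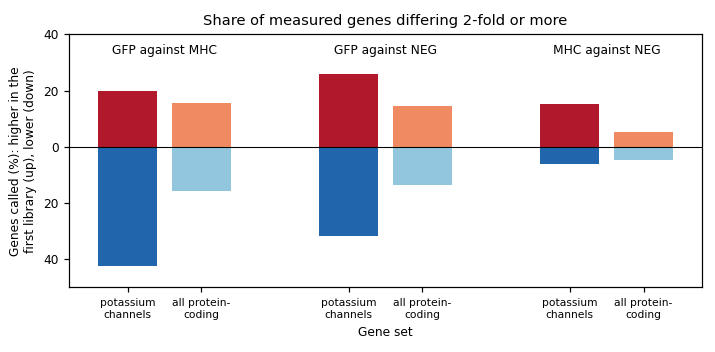
Percent of measured genes called higher (above 0) or lower (below 0) in the first library of each pair, for the 66 potassium channel genes (dark bars) and the 16036 protein-coding genes (light bars). The tallest bar is that of the potassium channel genes lower in GFP than in MHC, 28 of 66.

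The other 28 genes stayed under a mean of 10 and were not counted. None of them reached a value of 20 in any library. They include Kcne1 and Kcne2, whose proteins accompany the slow and rapid delayed rectifier channels, and 4 inward rectifier genes. Just outside the limit were Kcnmb1 with a mean of 9.94 and Kcnh5 with 8.41, and just inside it Kcnc1 with 10.8 and Kcnmb2 with 10.9. Kcnb2 has 2 entries in the table, of which the shorter was under the limit.

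Voltage-gated pore genes were the role with the most genes higher in GFP. Of 23 measured, 9 (39.1%) were higher in GFP than in MHC, 4 (17.4%) lower and 10 within 2-fold. The shares of protein-coding genes were 15.6% higher and 15.6% lower. Of the 9 genes, 3 (Kcna1, Kcna5 and Kcnh7) are uncertain because of overlapping genes. The Kcnh subfamily holds the channels of the ether-a-go-go family, and 4 of its 5 measured genes were higher in GFP. Kcnh3 (ENSMUSG00000037579, chr15:99224976-99242817), which encodes a channel of the ELK branch known mainly from forebrain neurons, had a value of 1162 (GFP), 84.1 (MHC) and 153 (NEG). GFP stood 13.8-fold (95% CI 11.1–17.5) above MHC and 7.62-fold (95% CI 6.38–9.17) above NEG. Kcnh1 (ENSMUSG00000058248, chr1:192190784-192510159), the founding channel of the family, had a value of 1417 (GFP), 394 (MHC) and 395 (NEG). The MHC and NEG libraries were level and GFP was 3.60-fold (95% CI 3.22–4.03) above MHC. A pair of relatives of the heart's rapid delayed rectifier gene were also higher in GFP than in MHC. Kcnh6 was at 605 (GFP), 199.5 (MHC) and 332 (NEG), 3.03-fold (95% CI 2.58–3.57) higher in GFP. Kcnh7 was at 727 (GFP), 139 (MHC) and 96.0 (NEG), but its end overlaps the neighbouring gene Gca on the other strand, which has more reads than Kcnh7, so its counts are uncertain.

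Kcnh2 itself went the other way. It encodes the rapid delayed rectifier, the main repolarising current of the late action potential in many mammals, and had a value of 269 (GFP), 1528 (MHC) and 854 (NEG) (ENSMUSG00000038319, chr5:24319589-24351604). GFP was the lowest of the libraries, below MHC by 5.69-fold (95% CI 5.02–6.47) and below NEG by 3.18-fold (95% CI 2.77–3.65). The 5 measured Kcnh genes were thus split between 4 that were highest in GFP and 1 that was lowest there.

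Outside the Kcnh group, Kcnc4 (ENSMUSG00000027895, chr3:107438303-107458898), the gene of a fast-inactivating voltage-gated channel, had a value of 517 (GFP), 64.8 (MHC) and 33.9 (NEG). GFP was 7.98-fold (95% CI 6.15–10.5) above MHC and 15.3-fold (95% CI 10.6–22.8) above NEG. Kcnq3, a subunit of the neuronal M current, had the order NEG, MHC, GFP from high to low, at 37.5 (GFP), 272 (MHC) and 608 (NEG), with GFP below MHC by 7.27-fold (95% CI 5.22–10.4) and MHC below NEG by 2.23-fold (95% CI 1.92–2.59).

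Kcnq1 and Kcnd1 differed little between populations. Kcnq1, the pore gene of the slow delayed rectifier, was at 276 (GFP), 386 (MHC) and 304 (NEG). The antisense RNA gene Kcnq1ot1 lies within the span of Kcnq1 in the GENCODE annotation, and the reads of the pair cannot be told apart, since the counts used here hold only a fragment of Kcnq1ot1. Kcnd1, a relative of the transient outward channel genes, was at 255 (GFP), 207 (MHC) and 247 (NEG).

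Promoter sequences are shown for the genes with the most different GFP to MHC ratios, since they mark both ends of the range: Kcne4 and Kcnma1, lowest in GFP, and Kcnc4 and Kcnh1, highest there. These are the 2 lowest and the 2 highest among genes with a mean of 100 or more, no overlapping gene of 25% or more, and a promoter in the RefSeq table used. Each runs 5′ to 3′ on the strand of the gene from 250 bases before its start to 50 after it (RefSeq, GRCm38.p6, the build called mm10 in the submitters' notes), with CpG dinucleotides in capitals. Kcne4 is at chr1:78816661-78816960 on the plus strand, Kcnma1 at chr14:24004156-24004455 on the minus strand, Kcnc4 at chr3:107458849-107459148 on the minus strand and Kcnh1 at chr1:192190527-192190826 on the plus strand.
Kcne4: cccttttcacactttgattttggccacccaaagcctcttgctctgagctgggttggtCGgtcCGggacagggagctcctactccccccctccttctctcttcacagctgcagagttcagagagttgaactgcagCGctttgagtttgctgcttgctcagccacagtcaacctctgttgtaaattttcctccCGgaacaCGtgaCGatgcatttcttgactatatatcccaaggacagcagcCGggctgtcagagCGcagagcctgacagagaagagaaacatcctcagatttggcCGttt
Kcnma1: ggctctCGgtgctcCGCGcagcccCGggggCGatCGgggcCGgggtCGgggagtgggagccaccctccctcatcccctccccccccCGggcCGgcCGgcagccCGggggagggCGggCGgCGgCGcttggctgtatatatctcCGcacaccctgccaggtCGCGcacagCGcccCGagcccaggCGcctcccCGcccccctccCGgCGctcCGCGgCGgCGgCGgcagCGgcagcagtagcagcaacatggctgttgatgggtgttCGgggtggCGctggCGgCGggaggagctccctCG
Kcnc4: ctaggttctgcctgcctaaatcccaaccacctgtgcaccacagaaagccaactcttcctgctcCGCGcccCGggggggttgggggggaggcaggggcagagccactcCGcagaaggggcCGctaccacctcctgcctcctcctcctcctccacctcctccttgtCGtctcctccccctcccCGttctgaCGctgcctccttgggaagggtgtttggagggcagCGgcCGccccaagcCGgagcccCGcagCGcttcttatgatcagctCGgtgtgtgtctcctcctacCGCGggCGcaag
Kcnh1: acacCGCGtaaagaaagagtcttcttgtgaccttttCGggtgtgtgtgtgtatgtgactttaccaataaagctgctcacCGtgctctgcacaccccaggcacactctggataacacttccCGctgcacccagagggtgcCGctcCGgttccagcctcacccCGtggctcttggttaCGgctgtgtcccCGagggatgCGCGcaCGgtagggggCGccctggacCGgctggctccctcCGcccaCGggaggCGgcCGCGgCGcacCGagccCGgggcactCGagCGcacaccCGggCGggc
Kcne4 holds 9 CpG, Kcnma1 36, Kcnc4 17 and Kcnh1 27, so the fewest and the most were both in genes lower in GFP. The Kcnma1 promoter lies beyond the end of that gene's span in the deposited table.

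Promoters were found for 48 of the measured genes, 65 sequences in all. Their median GC content was 61.0%, beside 52.7% for the 32851 promoters of the table. On either strand, the cAMP response element TGACGTCA was in 0 of the 65 and in 1.79% of all promoters, and the Iroquois core ACATGT in 0 and 5.28%. The TATA box TATAAA was in 3 (4.62%) and 13.6%, and the MEF2 core (CTA and TAG around 4 bases of any kind) in 1 (1.54%) and 3.69%. The last pair of patterns can overlap. The shown promoters contain none of these patterns, which says only that those letters are not in these windows.

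Inward rectifier genes had their lower values mostly in GFP. The GFP value was called lower than that of MHC for 8 of 11 measured Kcnj genes, higher for 0 and within 2-fold for 3 (median log2 ratio −1.90). The shares of protein-coding genes were 15.6% lower and 15.6% higher. The 8 cardiomyocyte markers, given above, were also lower in GFP, and their part in this result was not tested. Between MHC and NEG, 5 of the Kcnj genes were higher in MHC and 0 lower, beside 5.1% and 4.61% of protein-coding genes. Kcnj2 (ENSMUSG00000041695, chr11:111066164-111076821), the main pore gene of the ventricular inward rectifier, had a value of 64.0 (GFP), 257 (MHC) and 14.7 (NEG). Its levels were stepped, with MHC 4.02-fold (95% CI 3.08–5.32) above GFP and GFP 4.36-fold (95% CI 2.39–8.59) above NEG. Kcnj12 (ENSMUSG00000042529, chr11:61022564-61071131), its partner subunit gene, had a value of 18.3 (GFP), 236 (MHC) and 23.7 (NEG). Here GFP and NEG were within 2-fold of each other and MHC was 12.9-fold (95% CI 8.17–21.5) above GFP and 9.95-fold (95% CI 6.36–16.4) above NEG.

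The third strong rectifier gene, Kcnj4, did not share that pattern. Its value was 15.5 (GFP), 141 (MHC) and 154 (NEG), level between MHC and NEG and 9.06-fold (95% CI 5.46–16.0) lower in GFP than in MHC. A further relative, Kcnj14, was 3.97-fold lower in GFP than in MHC at the low values of 10.97 (GFP), 43.6 (MHC) and 21.5 (NEG). Every measured gene of the strong inward rectifiers was therefore called lower in GFP than in MHC, but only Kcnj2 and Kcnj12 also separated MHC from NEG by the same rule.

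The acetylcholine-activated channel of atrial and nodal cells is built from the products of Kcnj3 and Kcnj5. Kcnj5 (ENSMUSG00000032034, chr9:32314783-32344237) had a value of 413 (GFP), 654 (MHC) and 20.3 (NEG). Both reporter-positive populations were far above NEG, MHC by 32.2-fold (95% CI 20.2–54.6) and GFP by 20.3-fold (95% CI 12.7–34.6), and they lay within 2-fold of each other. Kcnj3, at 57.6 (GFP), 165 (MHC) and 28.2 (NEG), was 5.85-fold (95% CI 3.82–9.30) higher in MHC than in NEG and 2.87-fold (95% CI 2.13–3.90) higher than in GFP. A long noncoding gene on the other strand, Gm26794, overlaps the start of Kcnj3, so its counts are uncertain. When the reads of Gm26794 were taken off, Kcnj3 remained 2.76-fold (95% CI 1.94–3.99) higher in MHC than in GFP. Its GFP to NEG ratio was 2.04 before and 2.02 after, no longer called because the added 1 put it just under 2-fold. Gm26794 is not wholly inside Kcnj3, so the subtraction can take off too much. The neuronal relative Kcnj6 was lower in GFP than in both others at 22.9 (GFP), 66.9 (MHC) and 67.8 (NEG).

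For the ATP-sensitive channel, which links the membrane voltage to the energy state of the cell, 2 pairs of subunits were measured. Kcnj11 and the receptor subunit gene Abcc8 form the pair described for atrial muscle and pancreatic beta cells, and Kcnj8 and Abcc9 that of vascular smooth muscle. Kcnj11 was highest in MHC at 19.2 (GFP), 114 (MHC) and 35.0 (NEG), and Abcc8 likewise at 22.9 (GFP), 103 (MHC) and 11.3 (NEG). Kcnj8 had its highest level in NEG at 16.5 (GFP), 82.0 (MHC) and 154 (NEG), and so had Abcc9 at 37.5 (GFP), 122 (MHC) and 220.3 (NEG). GFP was at least 2-fold below MHC for all 4 genes.

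**Figure D3:**
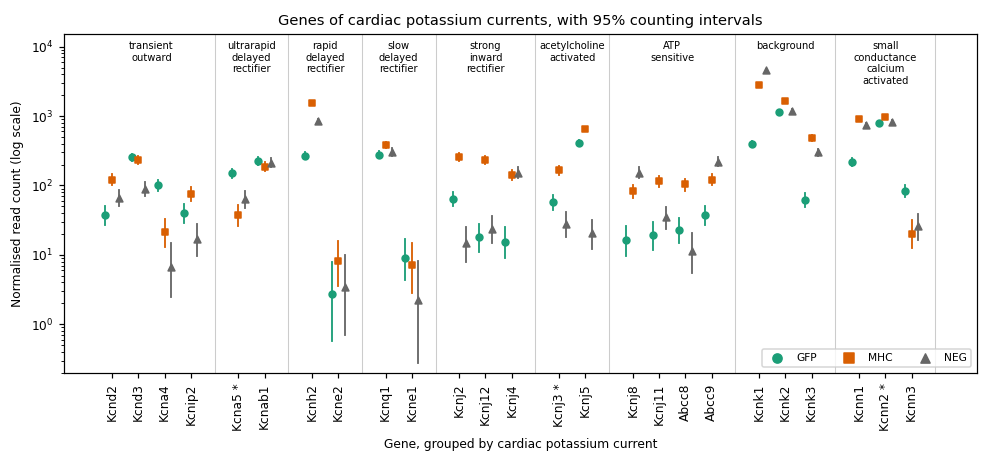
Normalised read count (log scale) of genes grouped by the cardiac potassium current they serve, in GFP, MHC and NEG with 95% intervals for counting error, and an asterisk where an overlapping gene has at least 25% of the value. Kcnj2, Kcnj12, Kcnj3 and Kcnj11 are highest in MHC, Kcna4 and Kcnn3 are highest in GFP, and Kcne1 and Kcne2 are under a mean of 10.

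Genes of the transient outward current, which makes the early notch of the action potential, were divided. Kcnd3 was at 255 (GFP), 231 (MHC) and 89.2 (NEG), alike in GFP and MHC and 2.59-fold (95% CI 1.9952–3.39) higher in MHC than in NEG. Kcnd2 was at 37.5 (GFP), 122 (MHC) and 65.5 (NEG) and 3.24-fold (95% CI 2.26–4.74) lower in GFP than in MHC. Kcna4 (ENSMUSG00000042604, chr2:107290639-107298502), the gene of the slowly recovering form of this current, was at 101 (GFP), 21.3 (MHC) and 6.78 (NEG), 4.73-fold (95% CI 2.95–7.94) higher in GFP than in MHC and higher in MHC than in NEG by 3.14-fold (95% CI 1.23–9.50). The auxiliary gene Kcnip2, whose product carries Kcnd channels to the surface, was at 40.2 (GFP), 76.0 (MHC) and 16.9 (NEG), so both reporter-positive populations were above NEG by 2-fold or more.

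In MHC against NEG, the 10 genes called higher in MHC were Kcna4, Kcnb2, Kcnd3, Kcng2, Kcnip2, Kcnj2, Kcnj3, Kcnj5, Kcnj11 and Kcnj12. Kcng2, which encodes a silent subunit that modifies Kcnb channels, was at 35.6 (GFP), 190.4 (MHC) and 48.6 (NEG), 3.92-fold (95% CI 2.80–5.60) above NEG and 5.34-fold (95% CI 3.77–7.75) above GFP. Kcnb2 was called at low counts with an interval that reaches equality (2.19-fold (95% CI 0.970–5.41)). Summed cardiomyocyte marker values were 312976 in MHC and 9967 in NEG, with all 8 markers, Myh6 among them, called higher in MHC. Their part in these differences was not tested. The 4 genes called lower in MHC than in NEG were Kcnma1, Kcnn4, Kcnk6 and Kcnq3.

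The comparison of GFP with NEG held 17 genes higher in GFP and 21 lower, as given above. Kcnj5, Kcnc4 and Kcna4 had the highest ratios among genes not called uncertain, at 20.3-fold, 15.3-fold and 14.8-fold higher in GFP. At the other end Kcnma1, Kcnn4, Kcns1, Kcne4, Kcnq3 and Kcnk1 were 63.3-fold, 35.0-fold, 31.4-fold, 31.3-fold, 16.2-fold and 11.5-fold lower in GFP. Kcnj2, Kcnj3 and Kcnj5 were the inward rectifier genes higher in GFP than in NEG, and Kcnj4, Kcnj6 and Kcnj8 those lower. Of 8 cardiomyocyte markers 3 were higher in GFP than in NEG and 0 lower, beside 14.4% and 13.6% of protein-coding genes. The part of the markers in these differences was not tested.

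Genes higher than both other libraries by 2-fold or more numbered 11 for GFP, 5 for MHC and 4 for NEG, with 11.3%, 3.47% and 2.53% of protein-coding genes. In GFP 19 genes were lower than both others, beside 10.7% of protein-coding genes, and in NEG 7, beside 1.29%. In MHC 0 were lower than both, beside 1.52%. No pair was called for 19 of the 66 genes, while the same held for 62.0% of protein-coding genes. Among those 19 were Kcnj15 at 297 (GFP), 479 (MHC) and 537 (NEG), Kcnk5 at 107 (GFP), 144 (MHC) and 160.4 (NEG) and, at lower values, Kcna2, Kcna7, Kcnc1, Kcnk7, Kcnk12 and Kcnmb2. Kcnf1, a silent subunit gene, was called only in GFP against MHC at 10.97 (GFP), 31.4 (MHC) and 20.3 (NEG), and Kcnk10 only in GFP against NEG at 7.31 (GFP), 15.2 (MHC) and 23.7 (NEG).

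Calcium-activated and sodium-activated channel genes, 8 of them measured, included 5 lower and 2 higher in GFP than in MHC, beside 15.6% and 15.6% of protein-coding genes. Kcnma1 (ENSMUSG00000063142, chr14:23289431-23803304), the gene of the large conductance channel prominent in smooth muscle, had a value of 49.4 (GFP), 1498 (MHC) and 3126 (NEG). GFP was 30.4-fold (95% CI 23.1–40.6) below MHC and 63.3-fold (95% CI 48.4–84.5) below NEG, and MHC was 2.09-fold (95% CI 1.96–2.22) below NEG. Its auxiliary gene Kcnmb4 was at 22.9 (GFP), 93.2 (MHC) and 87.0 (NEG), also lowest in GFP, and remained 3.27-fold (95% CI 1.91–5.82) lower there than in MHC once the reads of an overlapping antisense gene were removed. Smooth muscle markers had summed values of 3466 (GFP), 53986 (MHC) and 53558 (NEG) and all 5 were lower in GFP than in either other library. Their part in the result was not tested.

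The small conductance genes, whose channels open with intracellular calcium and act in atrial repolarisation, differed from one another. Kcnn1 was at 220.3 (GFP), 911 (MHC) and 733 (NEG), 4.13-fold (95% CI 3.58–4.79) lower in GFP than in MHC. Kcnn3 was at 84.1 (GFP), 20.3 (MHC) and 26.0 (NEG), 4.15-fold (95% CI 2.54–7.11) higher in GFP than in MHC. Kcnn4, the intermediate conductance gene known from red blood cells and lymphocytes, was at 5.48 (GFP), 49.6 (MHC) and 192 (NEG), and its GFP value rests on 6 reads. GFP was thus the highest library for Kcnn3 and the lowest for Kcnn1 and Kcnn4.

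Both sodium-activated channel genes were lowest in GFP. Kcnt1 was at 11.9 (GFP), 83.1 (MHC) and 65.5 (NEG) and Kcnt2 at 144 (GFP), 306 (MHC) and 522 (NEG), 6.99-fold and 2.12-fold lower in GFP than in MHC. The Kcnt2 difference was no longer called when values were scaled to total reads. Kcnu1 (ENSMUSG00000031576, chr8:25849623-25937933), of the same family but opened by alkaline pH and known from sperm, was at 141 (GFP), 20.3 (MHC) and 20.3 (NEG). GFP was 6.95-fold (95% CI 4.35–11.7) above MHC, and MHC and NEG had the same level.

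Two-pore domain genes encode background channels that set the resting potential. Of 9 measured, 3 (33.3%) were lower and 1 (11.1%) higher in GFP than in MHC, beside 15.6% and 15.6% of protein-coding genes. Kcnk1 (ENSMUSG00000033998, chr8:125995102-126030683) had a value of 399 (GFP), 2793 (MHC) and 4598 (NEG), 6.99-fold (95% CI 6.32–7.75) lower in GFP than in MHC. Kcnk6, a close relative, followed the same order at 156 (GFP), 462 (MHC) and 997 (NEG). Kcnk3, the acid-sensitive background channel gene of atrium and pulmonary artery, was at 62.2 (GFP), 485 (MHC) and 299 (NEG) and lower in GFP than in MHC by 7.81-fold (95% CI 6.04–10.2). The stretch-activated channel gene Kcnk2 lay within 2-fold in every pair at 1159 (GFP), 1629 (MHC) and 1180.5 (NEG). Its mechanosensitive relative Kcnk4 was the one higher in GFP, at 82.3 (GFP), 26.3 (MHC) and 32.8 (NEG).

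Of 10 measured auxiliary subunit genes, 4 were lower and 0 higher in GFP than in MHC, beside 15.6% and 15.6% of protein-coding genes. Kcne4 (ENSMUSG00000047330, chr1:78816949-78820024), whose protein inhibits Kcnq1 and several other voltage-gated channels, had a value of 38.4 (GFP), 2076 (MHC) and 1201 (NEG). Of all measured potassium channel genes it had the largest ratio between GFP and MHC, 54.1-fold (95% CI 39.9–75.3) lower in GFP, and it was 31.3-fold (95% CI 23.0–43.7) lower than in NEG. Kcnip1 (ENSMUSG00000053519, chr11:33629339-33993152), a calcium-binding partner of Kcnd channels, had a value of 3494 (GFP), 10617 (MHC) and 6562 (NEG) and was 3.04-fold (95% CI 2.93–3.15) lower in GFP than in MHC. Kcnip3, which encodes a partner protein that also acts as a transcriptional repressor, was 2.67-fold (95% CI 2.31–3.09) lower in GFP than in NEG at 257 (GFP), 383 (MHC) and 686 (NEG). Kcnab1, a beta subunit gene of Kcna channels, was level at 226 (GFP), 187 (MHC) and 214 (NEG).

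Silent modifier genes encode subunits that form no channel alone and alter Kcnb channels. Kcns1 (ENSMUSG00000040164, chr2:164163619-164171113) had a value of 30.2 (GFP), 833 (MHC) and 948 (NEG), with GFP 27.6-fold (95% CI 19.5–40.4) below MHC and MHC and NEG within 2-fold. Kcns3 had the same order at 88.7 (GFP), 273 (MHC) and 284 (NEG). Of the 5 measured, 4 were lower in GFP than in MHC, beside 15.6% of protein-coding genes. The exception, Kcng4, was 7.22-fold (95% CI 2.19–37.5) higher in GFP at low counts, with 24 reads (GFP), 3 (MHC) and 17 (NEG).

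**Figure D4:**
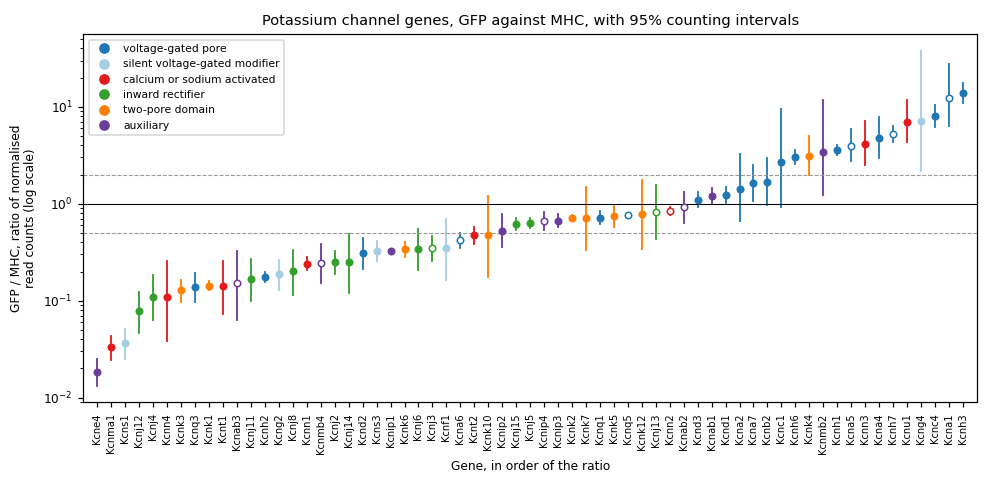
Ratio of the GFP to the MHC value (log scale) for 63 of the 66 measured genes in order, with 95% counting intervals as lines, colours for roles, open circles where an overlapping gene has at least 25% of the value, and dashed lines at 2-fold. Kcne4, Kcnma1 and Kcns1 lie at the low end and Kcnh3, Kcna1 and Kcnc4 at the high end.

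Kcnh3 and Kcna1, known mainly from neurons, were higher in GFP, and neuronal markers are given beside them. Of 8 neuronal markers 7 were measured. In GFP against MHC 2 were higher in GFP and 0 lower, beside 15.6% and 15.6% of protein-coding genes. In GFP against NEG 1 was higher in GFP and 1 lower, beside 14.4% and 13.6%. Elavl2 was at 900.4 (GFP), 18.2 (MHC) and 16.9 (NEG), whereas Tubb3 was at 77.7 (GFP), 43.6 (MHC) and 368 (NEG) and Snap25 at 23.8 (GFP), 38.5 (MHC) and 14.7 (NEG). Overlapping genes had at least 25% of the values of Tubb3 and Snap25, so those counts are uncertain. None of the 8 neuronal markers was at 0 in any library. The 6 epicardial and mesothelial markers were all higher in GFP than in both others, with summed values of 157608 (GFP), 5488 (MHC) and 5233 (NEG). Endothelial (3 of 4 measured, summed value 609 (GFP), 328 (MHC) and 515 (NEG)) and haematopoietic markers (2 of 4 measured, both higher in GFP than in MHC, 2202 (GFP), 848 (MHC) and 592 (NEG)) are also given. For fibroblast and matrix markers the sums were 1131944 (GFP), 4688111 (MHC) and 4839311 (NEG), with 2 of 5 higher and 3 lower in GFP than in MHC. The count of the haematopoietic marker Csf1r is also uncertain because of an overlapping gene. The part of these cell types in the channel differences was not tested.

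For 12 of the 66 measured genes, an overlapping gene had at least 25% of their value, and for some it held nearly all of it. Kcnq5, an M-type channel gene on chr1, had the value 2710.2 (GFP), 3581 (MHC) and 2739 (NEG), which would make it nearly level. Within its span lies the pseudogene Gm7658, with values of 2649.9 (GFP), 3387 (MHC) and 2552 (NEG), or 97.8%, 94.6% and 93.2% of the total. Without those reads the reads left were 66 (GFP), 191 (MHC) and 166 (NEG). The rest was 3.21-fold (95% CI 2.41–4.31) lower in GFP than in MHC, which turns Kcnq5 from a gene within 2-fold into one called lower.

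The Kcna genes on chr6 form the only group of measured members within 200 kb of one another. The counts of Kcna1 and Kcna5 are entangled. The span of Kcna5 in the deposited table (ENSMUSG00000045534, chr6:126532553-126698192) contains all of Kcna1 (ENSMUSG00000047976, chr6:126636463-126645801), although GENCODE M21 gives Kcna5 a far shorter span. Kcna1, a neuronal channel gene, had a value of 112 (GFP), 9.12 (MHC) and 9.04 (NEG), 12.3-fold (95% CI 6.29–27.6) higher in GFP than in MHC. Kcna5, the gene of the atrial ultrarapid current, had a value of 149 (GFP), 37.5 (MHC) and 63.3 (NEG) and was called higher in GFP than in MHC and than in NEG, the latter by 2.36-fold (95% CI 1.73–3.25). With the Kcna1 reads taken off, 40 reads were left in GFP, 28 in MHC and 48 in NEG, a GFP to MHC ratio of 1.29-fold (95% CI 0.776–2.1698) that was not called. The rest in GFP was then 0.674-fold (95% CI 0.432–1.05) that in NEG, below it rather than above, and was not called either. The third neighbour, Kcna6, was lowest in GFP at 169 (GFP), 400.1 (MHC) and 757 (NEG), and the gene Gm26673 on the other strand had 84.8% to 88.7% of that value. Gm26673 runs slightly beyond Kcna6, so the subtraction takes off a little too much. The rest of Kcna6 was 2.37-fold (95% CI 1.49–3.86) lower in GFP than in MHC.

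Kcnn2, a small conductance gene of atrial muscle, was within 2-fold in every pair at 799 (GFP), 957 (MHC) and 821 (NEG), and the pseudogene Gm10540 inside it had 76.5% to 82.9% of the value. The rest stayed within 2-fold. The remaining uncertain genes were Kcnab2, Kcnab3, Kcnip4 and Kcnj13, besides Kcnh7, Kcnj3 and Kcnmb4 above. For 16 measured genes, among them Kcnq1, Kcne4, Kcnma1, Kcnk1, Kcnk2, Kcnd2, Kcns3 and Kcnt2, GENCODE M21 places another gene in the span whose counts were not used here, so its share of the reads is unknown.

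**Figure D5:**
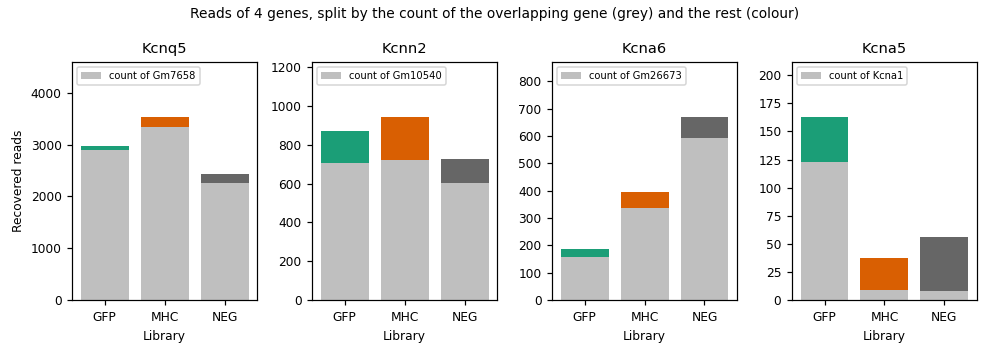
Recovered reads of Kcnq5, Kcnn2, Kcna6 and Kcna5 in each library, split into the count of the largest overlapping gene (grey) and the rest (colour). In Kcnq5 the rest is 66 reads (GFP), 191 (MHC) and 166 (NEG), and in Kcna5 most GFP reads are those of Kcna1.

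Partners of potassium channels were listed separately: 30 genes for accessory proteins, anchors, regulators and the sodium-potassium pump that restores the potassium gradient. Of 28 measured, 1 was higher and 8 lower in GFP than in MHC, beside 15.6% and 15.6% of protein-coding genes. In GFP against NEG 6 were higher and 5 lower, beside 14.4% and 13.6%, and in MHC against NEG 4 were higher and 0 lower, beside 5.1% and 4.61%. Fhl2, whose protein binds the slow delayed rectifier complex, was at 343 (GFP), 4624 (MHC) and 2489 (NEG), and the caveolin gene Cav3 at 78.6 (GFP), 605 (MHC) and 314 (NEG), both lowest in GFP. Dpp10, a partner of Kcnd channels, was level at 37.5 (GFP), 36.5 (MHC) and 37.3 (NEG). The muscarinic receptor gene Chrm2, which acts on the acetylcholine-activated channel, lay within 2-fold in every pair at 1455 (GFP), 2248 (MHC) and 1777 (NEG).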

How the data were processed

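RNA from 3 sorted populations, 1 library each, was sequenced as single reads from TruSeq libraries, per the labels' protocols. The submitters' processing notes name the build mm10 and, without their roles, the tools DESeq2 1.2.10, bedtools 2.17.0, STAR 2.3.0e and FastQC 0.11.2. The deposited table holds, for every Ensembl gene, 1 signal value per library: its reads over a size factor, per the file headers and the values. Dividing by the smallest value above 0 gave whole reads for 100% of values in each library (tolerance 0.01). With 1 library per population no count test could be fitted to those reads, so it calls no genes.

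Folds are ratios of the deposited values. Calls used log2(value + 1), which understates differences of low genes, with 2-fold and a value of 20 in the higher library. Exact 95% intervals (CI) of a ratio (Clopper-Pearson on the recovered reads, scipy 1.17.1) cover counting error only, and without molecular identifiers PCR copies count as reads. Among 778 genes with 300 or more reads inside an intron of another gene in GENCODE M21, the host had at least as many reads in 778, including 440 where the strands were opposite. Counting was taken to cover whole gene spans without regard to strand. The calls and intervals were tried on simulated counts that held counting error only. That trial cannot speak to variation between samples or sorts. Any measured member or listed partner could be named, and a few genes that enter the counts are not reported here by name. Where another gene overlapping a member had 25% or more of its value, the member was called uncertain and its reads were also given without that gene's, a step chosen after seeing the data. The members, gene lists and markers were chosen with earlier results of these data known. Alternatives were other scalings, pseudocounts, minimum values, folds and overlap rules.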

Additional observations from a re-analysis of the deposited data

How the results depend on the processing

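No paired analysis was possible because each population has 1 library, and for the same reason no replicate could be left out. With only the 35 genes of a mean of 100 or more, 21 were called between GFP and MHC (6 higher in GFP, 15 lower), 22 between GFP and NEG (8 higher) and 6 between MHC and NEG (3 higher), since fewer genes were compared. At 3-fold, 8 genes were called between MHC and NEG, 1 of them lower in MHC. Shares of all protein-coding genes under these settings are not given, so these counts cannot be set against a background. All other counts of calls were within 1.5 times those reported under each alternative run. No called ratio changed direction under the other scalings, while some ratios near 1 crossed equality, among them Kcnk2 and Kcnn2 in GFP against NEG (1.10 and 1.09 when scaled to total reads). The call of Kcna5 in GFP against NEG turned to a ratio of 0.674 without the Kcna1 reads. Scaling to total reads moved the median of all genes by 0.17 on the log2 scale in GFP against MHC. With it Kcnt2 was no longer called in GFP against MHC, and Kcnh6 became called in GFP against NEG. Scaling to the 75th percentile took Kcnj3 out of the calls in GFP against NEG and brought Kcnj14 in for MHC against NEG. Taking off the reads of the largest overlapping gene, an alternative chosen after seeing the data, gave 10 higher and 29 lower in GFP against MHC, 13 and 22 in GFP against NEG, and 10 and 4 in MHC against NEG. These are counts among 62 genes, because Kcna1, Kcnab2, Kcnh7 and Kcnj13 were left with 0 reads and dropped out. Their overlapping genes have more reads and were taken off whole, so the loss of the Kcna1 and Kcnh7 calls was fixed in advance. Kcna1 and Kcna5 were each taken off the other. Depth limits genes with few reads, such as Kcng4, Kcnb2 and Kcnn4.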
